A study of Homo sapiens with 12 samples.

Results

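The genes described here are 36 targets of the transcription factor NRF2 and antioxidant enzymes, taken as the rows of the count table whose Ensembl identifiers map to a list of symbols. This list was chosen with earlier results of these data known, so member counts set beside shares of all genes are descriptive. All 36 were found among the 12584 genes of the table used here, which ends in an incomplete row. Genes past that row are not analysed here, and library totals, CPM and shares are over the genes of this table. The study asked how raised HOXC6, a homeobox transcription factor, alters the transcriptome of non-small cell lung cancer (NSCLC) cells. It used 2 established human lines, A549 and PC9, each stably carrying a lentiviral vector with HOXC6 (A549-HOXC6, PC9-HOXC6) or the vector without an insert (A549-NEO, PC9-NEO). Each of these 4 groups has 3 poly(A) RNA-seq libraries. All groups share the vector backbone and neomycin selection, and each is a selected population of 1 line. A549 was kept in an RPMI medium and PC9 in DMEM, so line and medium cannot be told apart. A549 is known to carry a mutation in KEAP1, which was not examined in these counts.

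NRF2, encoded by NFE2L2, drives genes for glutathione, NADPH and detoxification. KEAP1 holds it in the cytoplasm and hands it to a CUL3 ubiquitin ligase for destruction, and oxidants or electrophiles that modify KEAP1 stop this. Freed NRF2 pairs with a small MAF protein on antioxidant response elements. Mutations of KEAP1 are frequent in lung adenocarcinoma and are known to leave NRF2 active.

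The libraries held between 1212053 and 3286577 counts, so that 3 counts correspond to between 0.915 and 2.57 normalized CPM (counts scaled to a common library size), which covers counting error only. A549-HOXC6 replicate 3 stood furthest from its group, with a chi-square per degree of freedom of 4.26 and 3.11 against its partners, where the other pairs lay between 1.58 and 2.78. The libraries are described as independent replicates, without saying whether they came from separate cultures, so p-values measure only the spread between these libraries, which may be technical. Of the epithelial markers, KRT7 and KRT18 were at 6516 ± 112 and 1169.7 ± 23.5 CPM in A549-NEO, and CDH1 was at 183 ± 6.67 CPM in A549-NEO and 382 ± 8.37 in PC9-NEO (SD, n = 3), while EPCAM was at 5.76 ± 1.12 and 196 ± 11.5. The lung lineage markers NKX2-1, SFTPB and NAPSA were at most at 4.32 ± 0.458 CPM (NAPSA in A549-NEO) in any group. Of the fibroblast genes, COL1A2 was at or near 0, PDGFRB was at most at 1.13 ± 0.304 CPM and COL1A1 reached 67.7 ± 1 CPM in A549-NEO. HOXC6 itself was not analysed here, so the counts do not check which vector a library carried. In bulk samples, fewer expressing cells and less RNA per cell cannot be told apart.

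The promoters of the members were searched for the core of the antioxidant response element, because that is the letter pattern NRF2 is known to read. The searched core was TGACNNNGC, on both strands, in the 250 bases before the annotated start (RefSeq, GRCh38.p14). A promoter was found for 28 of the 36 members, and 6 of these held a core (21.4%), against 11% of all 27305 promoters and 12% of the 7318 promoters of genes tested in A549-NEO against PC9-NEO. The 6 were GCLM, PGD, ME1, CBR1, GSTP1 and FECH, each with 1 core. By the line comparison described later, 1 of 8 promoters of members higher in A549-NEO held a core (12.5%), and 2 of 9 of those lower (22.2%). A match describes the letters of this window and is not a bound site. SLC7A11, GSR, PRDX1, ALDH3A1, CBR3, ABCC1, ABCC3 and HMOX1 had no entry in the promoter table. The 3 windows below are those of the members with a core that differed between the lines past the thresholds given later. PGD, at chr1:10398814-10399063 on the plus strand, was the one higher in A549-NEO, while GSTP1, at chr11:67583562-67583811 on the plus strand, and GCLM, at chr1:93909431-93909680 on the minus strand, were lower. Each is written 5′ to 3′ along its gene's own strand, with the core in capitals.
PGD: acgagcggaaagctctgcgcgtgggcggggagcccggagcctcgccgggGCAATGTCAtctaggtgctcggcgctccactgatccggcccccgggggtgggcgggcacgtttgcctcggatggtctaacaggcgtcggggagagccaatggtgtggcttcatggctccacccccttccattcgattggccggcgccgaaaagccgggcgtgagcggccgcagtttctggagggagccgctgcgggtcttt
GSTP1: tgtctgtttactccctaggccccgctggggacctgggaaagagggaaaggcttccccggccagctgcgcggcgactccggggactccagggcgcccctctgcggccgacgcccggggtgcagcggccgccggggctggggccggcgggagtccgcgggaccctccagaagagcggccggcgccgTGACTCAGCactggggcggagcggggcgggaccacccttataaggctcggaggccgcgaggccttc
GCLM: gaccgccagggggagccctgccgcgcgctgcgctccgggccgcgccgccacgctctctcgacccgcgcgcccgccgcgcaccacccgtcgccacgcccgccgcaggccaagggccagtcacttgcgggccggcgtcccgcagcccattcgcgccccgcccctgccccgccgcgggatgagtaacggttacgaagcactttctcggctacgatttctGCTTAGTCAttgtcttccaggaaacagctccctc
Read on its own strand, the core was TGACATTGC in PGD, TGACTCAGC in GSTP1 and TGACTAAGC in GCLM. Its first base in the printed direction lay 201, 66 and 34 bases before the start, respectively. The PGD and GCLM cores run against the gene, so the capitals show their reverse complement, and the GSTP1 core runs along its gene. ME1 held the same 9 letters as GSTP1, 137 bases before its start.

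The members held a larger share of all counts in A549 than in PC9. They took 3.11% ± 0.0252 of the counts in A549-NEO and 1.75% ± 0.0588 in PC9-NEO (SD, n = 3), and the groups did not overlap. The shares were 3.15% ± 0.0307 for A549-HOXC6 against 1.65% ± 0.0125 for PC9-HOXC6. The exact two-sided permutation test gave p = 0.1 for both line comparisons, the smallest p that 3 against 3 libraries allow. For HOXC6 against NEO the exact permutation p was 0.2 in A549 and 0.1 in PC9. Transketolase (TKT) alone made up 29.4% of the members' counts in A549-NEO and retinaldehyde dehydrogenase ALDH1A1 another 14.3%. Without these 2 genes the remaining 34 held 1.75% in A549-NEO, 1.91% in A549-HOXC6, 1.51% in PC9-NEO and 1.40% in PC9-HOXC6. Most of the difference between the lines in this share lay in TKT and ALDH1A1, in NEO and in HOXC6 libraries.

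**Figure D1:**
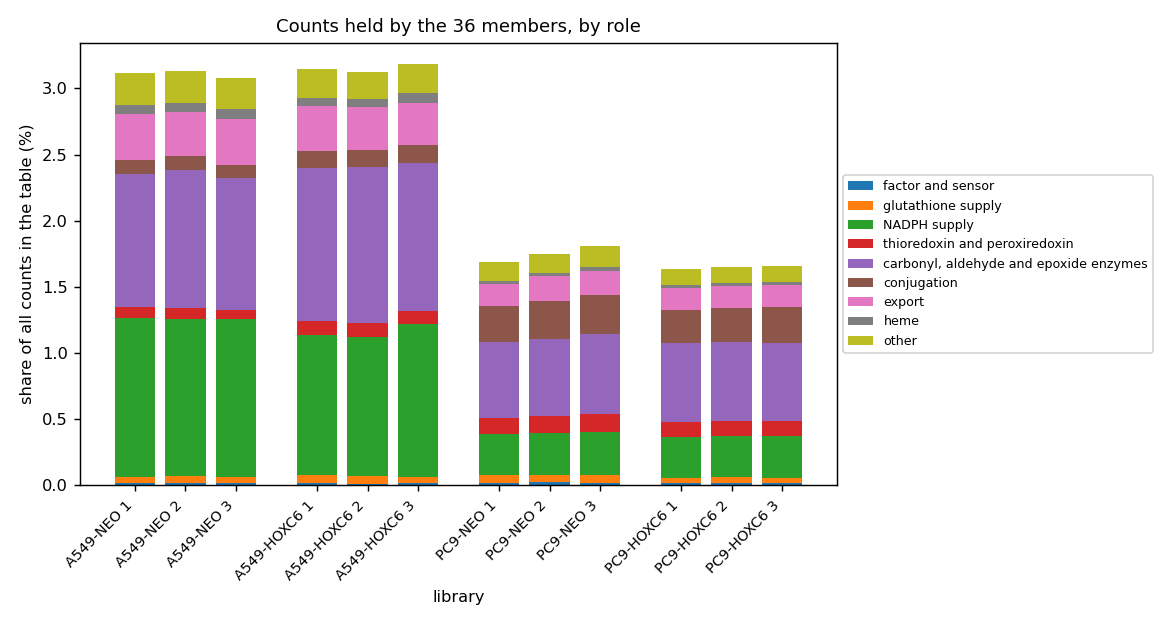
Share of all counts in the table (percent, vertical axis) held by the 36 members in each of the 12 libraries, stacked by role. The A549-NEO and A549-HOXC6 bars stand near 3.11% and 3.15% and the PC9-NEO and PC9-HOXC6 bars near 1.75% and 1.65%. The role labelled NADPH supply (TKT, PGD, ME1 and IDH1) and the carbonyl, aldehyde and epoxide enzymes form most of the gap. Within that role TKT, which recycles pentose phosphates, holds 29.4% of the members' counts in A549-NEO, and PGD 8.26%.

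Per kilobase of transcript, the most abundant members were not the same in both lines. In A549-NEO, TKT came first at 3042 ± 33.7 CPM per kb, followed by ALDH1A1 at 2110.4 ± 66.7, PGD at 1128 ± 8.05 and AKR1B1 at 1038 ± 8.27 (SD, n = 3), and each of these stood apart from the next by more than its SD. In PC9-NEO, aldose reductase AKR1B1 led at 2551 ± 58.7 CPM per kb and glutathione S-transferase GSTP1 followed at 2352 ± 155, a gap wider than either SD, with PRDX1 next at 1045 ± 48.2. ALDH1A1 was at 17.7 ± 2.13 in PC9-NEO. The lowest members were UGT1A6 in A549-NEO, at 0.591 ± 0.493 CPM per kb, and OSGIN1, HMOX1, FECH and SLC7A11 in PC9-NEO, which lay between 7.84 and 8.59 and whose neighbours in the order did not differ beyond their SD.

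**Figure D2:**
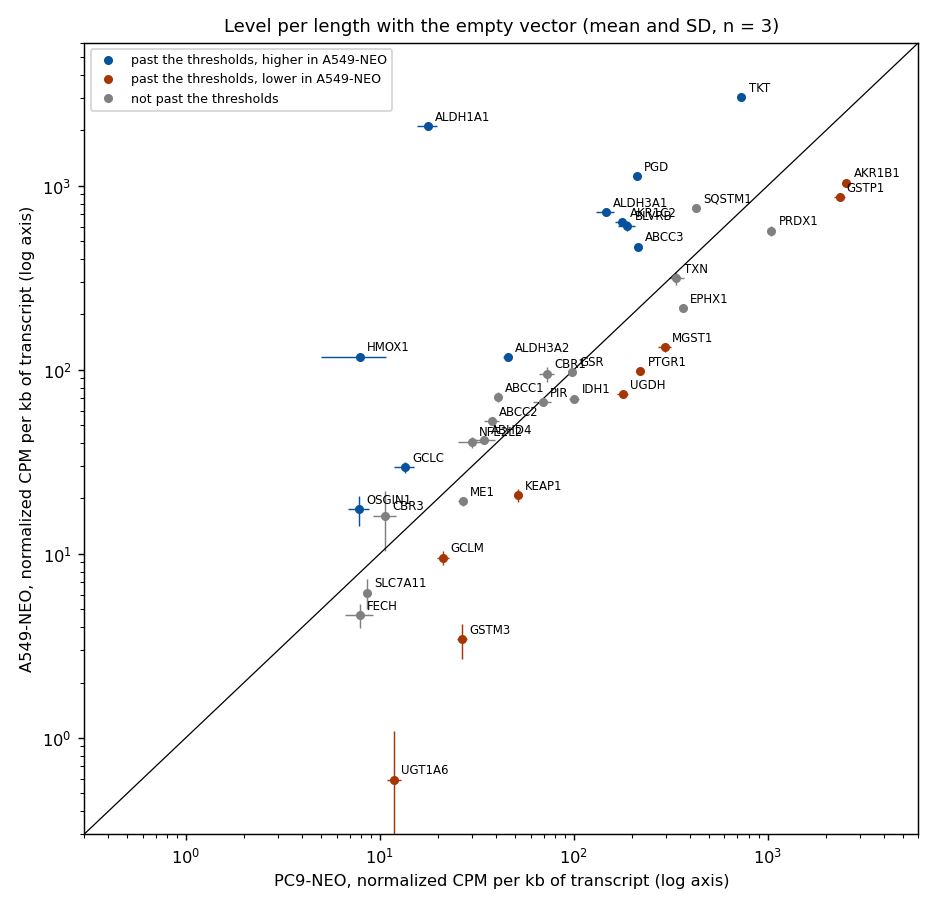
Mean level of each member in PC9-NEO (horizontal) and A549-NEO (vertical) in normalized CPM per kb of transcript, both on log axes, with SD over 3 libraries and the line of equal level. ALDH1A1, HMOX1 and the pentose phosphate enzymes TKT and PGD lie far above the line, and UGT1A6 and GSTM3 far below it.

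A549-NEO against PC9-NEO asked how the members differ between a KEAP1-mutant line and PC9. The members split in direction: aldehyde dehydrogenases, the pentose phosphate enzymes PGD and TKT, AKR1C2 and heme-degrading enzymes were higher in A549, while the 5 conjugation enzymes among the members, GCLM and KEAP1 itself were lower. Fitted with edgeR's quasi-likelihood test over all 9076 genes tested, 11 members were higher and 9 lower past the thresholds. These were a log2 fold change beyond 1 in size and a Benjamini-Hochberg adjusted p under 0.05. Of all genes tested 36% passed these thresholds, 19.6% higher and 16.4% lower. On adjusted p alone, 18 members were higher, 15 lower and 3 (GSR, TXN and PIR) did not pass, where 72.7% of all genes passed, 36.9% higher and 35.7% lower. The median log2 difference was 0.17 over the members and 0.02 over all genes tested. Where the groups of a gene are said below to lie apart, the share of all genes so separated is not given here.

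The same line difference was measured in libraries it shares none with, A549-HOXC6 against PC9-HOXC6. There 13 members were higher and 3 lower past the thresholds, where 18% and 15.9% of the 8828 genes tested were (33.9% in either direction). On adjusted p alone the counts were 19 and 11 of 36, where 66.5% of all genes passed, 33.7% higher and 32.9% lower. All 11 members higher in A549-NEO were higher again, 3 of the 9 lower ones (AKR1B1, UGT1A6 and GSTM3) were lower again past the thresholds, and 33 of 36 members had the same sign in both. The 3 that did not were SLC7A11, TXN and FECH. How often other genes repeat in this way is not given here, so these counts do not set the members apart. Without A549-HOXC6 replicate 3 the log2 difference of GSTP1 passed the fold threshold at -1.06 and that of SLC7A11 at 1.01, and SLC7A11 also passed at 1.01 without PC9-HOXC6 replicate 3. The median log2 difference was 0.51 over the members and -0.0039 over all genes tested, and stayed 0.51 with UGT1A6 set at the bound given below.

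**Figure D3:**
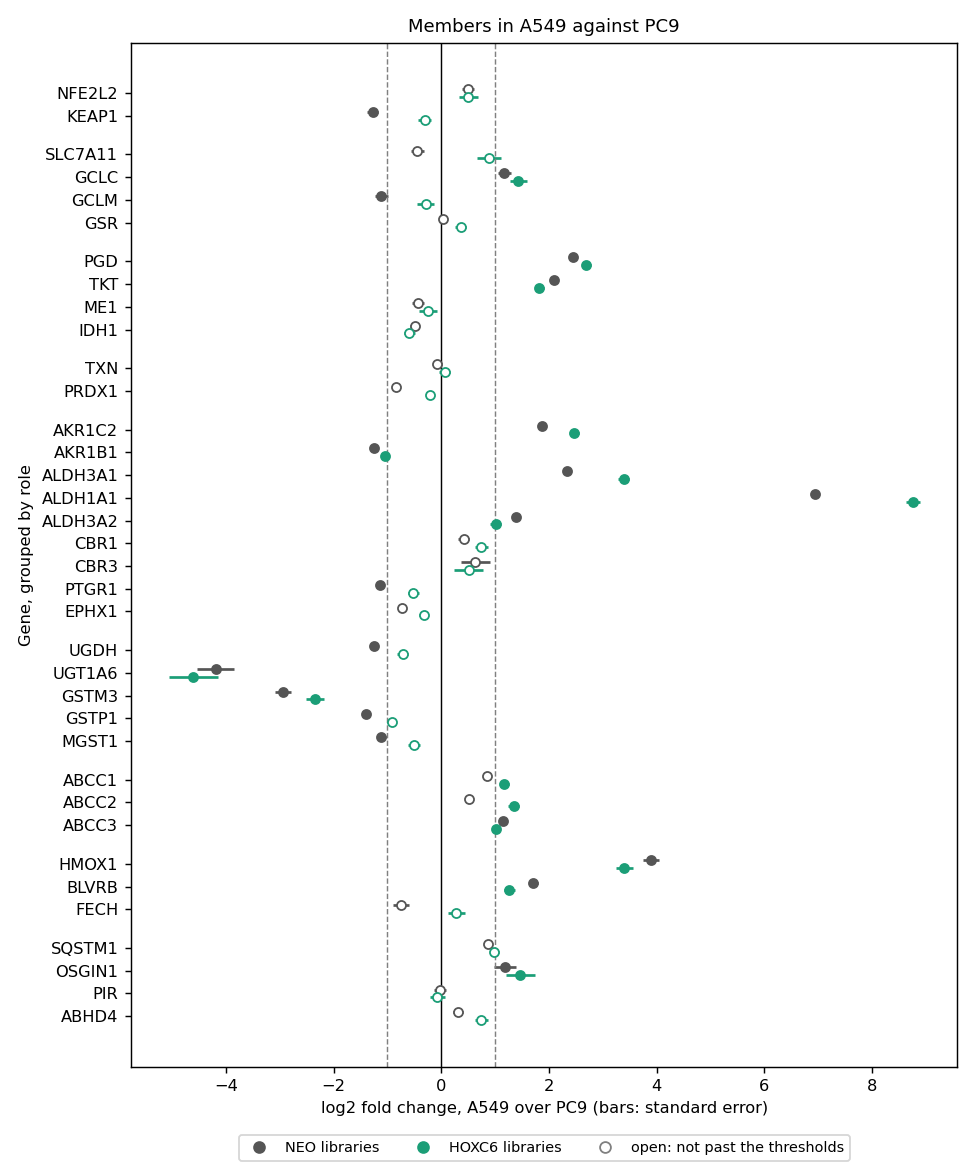
Log2 fold change of A549 over PC9 for each member, in NEO (grey) and HOXC6 (green) libraries, with standard errors and dashed lines at the fold threshold. Filled points passed both thresholds: 20 members in the NEO libraries and 16 in the HOXC6 libraries, with ALDH1A1 at 6.93 and 8.76.

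The factor and its sensor were both expressed. NFE2L2 (GRCh37 chr2:178083395-178257484, minus strand) was at 102, 104 and 91.5 CPM in A549-NEO and 73, 84.6 and 61.9 in PC9-NEO. All A549-NEO libraries lay above those of PC9-NEO, with log2 difference 0.49, SE 0.11, adjusted p = 2.12e-04, short of the fold threshold. KEAP1 (chr19:10596801-10614234, minus strand), the adaptor that presents NRF2 for destruction, was at 51.3, 50.2 and 58.5 CPM in A549-NEO and 128, 129 and 139.5 in PC9-NEO. It was 2.42-fold lower in A549-NEO (log2 difference -1.27, SE 0.11, adjusted p = 2.86e-13). With HOXC6, KEAP1 was at 92.8, 98.4 and 123 CPM in A549 and 126, 136 and 122 in PC9, groups that overlapped, with a log2 difference of -0.30. Exons of other genes overlap those of NFE2L2 by 2037 bases on the same strand and 3710 on the other, so its counts are uncertain to that extent, while KEAP1 has no such overlap. The strand used in counting is not given in the sources used here, so antisense overlaps named below are limits too.

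The glutathione genes did not move together. The 2 subunits of glutamate-cysteine ligase, the rate-limiting enzyme of glutathione synthesis, went in opposite directions. The catalytic subunit GCLC was at 103, 118 and 114 CPM in A549-NEO and 49.7, 57.4 and 45.8 in PC9-NEO, 2.26-fold higher (log2 difference 1.17, SE 0.11, adjusted p = 1.71e-11). The modifier subunit GCLM was at 49.6, 47.8 and 42 CPM in A549-NEO and 105, 111 and 95.4 in PC9-NEO, 2.16-fold lower (log2 difference -1.11, SE 0.12, adjusted p = 9.18e-11). With HOXC6, GCLC was again higher in A549, at 112, 104 and 91 CPM against 31.8, 44.2 and 38.1, a log2 difference of 1.43. Other genes overlap 529 bases of GCLC's exons on its strand and 305 on the other. GCLM, however, overlapped there, with 53.1, 39.4 and 46.6 CPM for A549-HOXC6 against 57.9, 50.9 and 61.3 for PC9-HOXC6 (adjusted p = 0.11). SLC7A11, which imports the cystine that glutathione needs, had a log2 difference of -0.44 in the NEO libraries and 0.89 in the HOXC6 libraries. Glutathione reductase GSR did not pass in the NEO libraries (log2 difference 0.033, adjusted p = 0.685) and was at 0.36 in the HOXC6 libraries.

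Both enzymes of the pentose phosphate pathway in the list were higher in A549. Phosphogluconate dehydrogenase PGD, which makes NADPH, was at 2575, 2563 and 2539 CPM in A549-NEO and 489.7, 466 and 489 in PC9-NEO, 5.46-fold higher (log2 difference 2.45, SE 0.053, adjusted p = 3.49e-31). TKT, which recycles pentose phosphates, was at 9208, 9007 and 9126 CPM against 2176, 2154 and 2258, 4.27-fold higher (log2 difference 2.09, SE 0.042, adjusted p = 4.36e-32). The HOXC6 libraries gave log2 differences of 2.69 for PGD and 1.82 for TKT, both past the thresholds. The other NADPH producers went the other way at a smaller size in the NEO libraries. Malic enzyme ME1 was at -0.43 and isocitrate dehydrogenase IDH1 at -0.49 on the log2 scale, both past adjusted p alone. Thioredoxin TXN did not pass in either line comparison, and the peroxidase PRDX1 had log2 differences of -0.83 and -0.21. MMACHC, a gene of the other strand, overlaps 501 bases of PRDX1's exons.

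The carbonyl, aldehyde and epoxide enzymes held the greatest difference. ALDH1A1, which oxidizes retinaldehyde, was at 4420.5, 4565 and 4285 CPM in A549-NEO and 34, 42.3 and 35.2 in PC9-NEO. That is 122-fold higher in A549 (log2 difference 6.93, SE 0.072, adjusted p = 2.34e-41), and the fold was 432 in the HOXC6 libraries, where the levels were 4544, 4694 and 4079 CPM in A549 and 10.1, 8.11 and 11 in PC9. ALDH3A1, which clears aldehydes from lipid peroxidation, was at 1199, 1154 and 1183 CPM in A549-NEO against 233, 219 and 268 in PC9-NEO, 5.03-fold higher (log2 difference 2.33, SE 0.067, adjusted p = 2.53e-27). Its fold was 10.4 in the HOXC6 libraries. The fatty aldehyde dehydrogenase ALDH3A2 was at 435, 449 and 416 CPM against 163, 166 and 179, a log2 difference of 1.39, and 1.01 in the HOXC6 libraries, where it stood at the fold threshold. That call was lost when scaled by library total alone (0.94), with a correction for GC content and length (0.93), and without A549-HOXC6 replicate 1 (0.98) or 2 (0.99) or PC9-HOXC6 replicate 3 (0.95). All libraries of A549-NEO were above all of PC9-NEO for each of these 3 dehydrogenases.

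The aldo-keto reductases split. AKR1C2, a ketosteroid reductase, was at 1991, 2126 and 2019 CPM in A549-NEO against 519.9, 606 and 594 in PC9-NEO, 3.66-fold higher (log2 difference 1.87, SE 0.057, adjusted p = 1.88e-26). Of its 75-base windows, 36% also occur in AKR1C1, AKR1C3 or AKR1C4, so its reads may be split among them. AKR1B1, which reduces glucose and lipid aldehydes, was at 1412, 1403 and 1425 CPM against 3459, 3399 and 3557, 2.39-fold lower (log2 difference -1.26, SE 0.046, adjusted p = 6.11e-24). Both held their direction in the HOXC6 libraries, with log2 differences of 2.47 and -1.05. The prostaglandin reductase PTGR1 was at 156, 158 and 156 CPM in A549-NEO and 352, 335 and 369.9 in PC9-NEO (log2 difference -1.13), and at -0.52 in the HOXC6 libraries. Epoxide hydrolase EPHX1 was at -0.72 and -0.33 on the log2 scale. The carbonyl reductases CBR1 and CBR3 were at 0.41 and 0.64 in the NEO libraries, past adjusted p alone. CBR1 shares 27.1% of its 75-base windows with a second annotated gene, and 710 bases of CBR3's exons lie under its antisense gene.

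All 5 conjugation enzymes among the members were lower in A549-NEO past the thresholds, where 16.4% of all genes tested were. Glutathione transferases outside the members did not follow. MGST3 (63.2 ± 2.6 CPM in A549-NEO against 44.7 ± 3.72 in PC9-NEO) and MGST2 (20.2 ± 2.17 against 16.8 ± 0.483) were higher, short of the fold threshold. GSTO1 (80.4 ± 5.67 against 82.5 ± 8.07) overlapped (SD, n = 3). In each of the 5 members the groups did not overlap, a separation not counted over all genes. UGT1A6, which attaches glucuronic acid to phenols, had 8, 1 and 3 counts in A549-NEO, or 2.78, 0.402 and 1.18 CPM, against 26.5, 29.7 and 31.4 CPM in PC9-NEO (log2 difference -4.19, SE 0.35, adjusted p = 2.83e-13). In A549-HOXC6 it had at most 2 counts in a library, which puts it at least 12.7-fold lower than in PC9-HOXC6, taking 3 counts per library as the floor. Its exons are largely shared with other genes of the UGT1A locus, with 59.3% of 75-base windows in common, so the counts may not be its own. GSTM3, a glutathione S-transferase, was at 12.1, 17.7 and 12.6 CPM in A549-NEO against 103, 112 and 116 in PC9-NEO, 7.63-fold lower (log2 difference -2.93, SE 0.15, adjusted p = 1.87e-19), and 5.07-fold lower in the HOXC6 libraries. GSTP1, the abundant transferase of epithelia, was at 644, 648 and 631 CPM against 1661, 1694 and 1874, 2.65-fold lower (log2 difference -1.40, SE 0.055, adjusted p = 6.47e-23).

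UGDH, which makes the UDP-glucuronic acid that UGT1A6 uses, was at 221, 226 and 225 CPM in A549-NEO and 526, 587 and 521 in PC9-NEO (log2 difference -1.24, SE 0.068, adjusted p = 1.85e-18), with 513 bases of its exons under its antisense gene. The microsomal transferase MGST1 was at 130.5, 122 and 116 CPM against 269, 296 and 255 (log2 difference -1.11, SE 0.083, adjusted p = 1.26e-14). In the HOXC6 libraries GSTP1, UGDH and MGST1 were again lower in A549 with no overlap, on adjusted p alone, with log2 differences of -0.92, -0.72 and -0.51 that did not reach the fold threshold.

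All 3 export pumps, which carry glutathione and glucuronide conjugates out of the cell, were higher in A549. ABCC3 was at 2665, 2583 and 2715 CPM in A549-NEO against 1177, 1235 and 1259.7 in PC9-NEO, 2.23-fold higher (log2 difference 1.16, SE 0.048, adjusted p = 4.61e-22). ABCC1 had a log2 difference of 0.85 and ABCC2 of 0.51 in the NEO libraries, short of the fold threshold. In the HOXC6 libraries all 3 passed, at 1.02, 1.17 and 1.34. There ABCC1 was at 700.1, 625 and 674 CPM in A549 and 291, 322 and 273 in PC9, and ABCC2 was at 282, 278 and 254 in A549 and 104, 98.8 and 113 in PC9, with no overlap in either. ABCC3 stood at the threshold there and lost the call when scaled by library total alone (0.95), with the GC and length correction (0.89) and without A549-HOXC6 replicate 3 (0.99).

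The heme-degrading enzymes were higher in A549. Heme oxygenase HMOX1, which opens the heme ring, was at 178, 187 and 184 CPM in A549-NEO and 10.3, 9.06 and 17.4 in PC9-NEO, 14.9-fold higher (log2 difference 3.90, SE 0.15, adjusted p = 1.03e-23), and 10.6-fold higher in the HOXC6 libraries. Biliverdin reductase BLVRB, which reduces biliverdin-type pigments, was at 468, 464 and 521 CPM against 137, 149 and 167, 3.28-fold higher (log2 difference 1.71, SE 0.078, adjusted p = 6.69e-21), and 2.41-fold in the HOXC6 libraries. Ferrochelatase FECH, which inserts iron into heme, went the other way in the NEO libraries at -0.75 and did not pass in the HOXC6 libraries (adjusted p = 0.109). Of the 4 remaining members, OSGIN1, an oxidative stress response gene, was at 39.6, 34.2 and 27.1 CPM in A549-NEO against 13, 16.1 and 16.1 in PC9-NEO (log2 difference 1.19, SE 0.21), and MLYCD overlaps 457 bases of its exons on the same strand. The autophagy receptor SQSTM1, which binds KEAP1, was at 0.87 and 0.99, short of the fold threshold, and 1687 bases of its exons overlap genes of the other strand. The iron protein PIR did not pass in either comparison, and the lipase ABHD4 was at 0.31 and 0.75.

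A549-HOXC6 against A549-NEO asked which members HOXC6 alters in the KEAP1-mutant line. ALDH3A1 was the only member past the thresholds, 1 of 35 tested, where 7.21% of the 8771 genes tested passed (1.70% higher and 5.51% lower). Its level was 1199, 1154 and 1183 CPM without HOXC6 against 2541, 2621 and 3249 with it, 2.30-fold higher (log2 difference 1.20, SE 0.074, adjusted p = 1.11e-12). UGT1A6 was too low to be tested. On adjusted p alone, 13 members were higher, 5 lower and 17 did not pass, where 39.6% of all genes passed, 18.9% higher and 20.7% lower. Scaled by library total alone these member counts were 11 and 10, and the matching share of all genes is not given here. No member was lower past the thresholds with edgeR or DESeq2, and 9 were lower at an unadjusted p under 0.05. The median log2 difference was -0.0023 over the members and -0.00047 over all genes tested.

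KEAP1 and NFE2L2 stopped just short of the fold threshold in A549. KEAP1 went from 51.3, 50.2 and 58.5 CPM to 92.8, 98.4 and 123 with HOXC6 (log2 difference 0.92, SE 0.13, adjusted p = 3.23e-06). NFE2L2 went from 102, 104 and 91.5 CPM to 64.4, 44.5 and 54.6 (log2 difference -0.87, SE 0.13, adjusted p = 9.76e-06). In neither gene did the groups overlap, and without A549-HOXC6 replicate 1 both crossed the fold threshold, at 1.02 and -1.03. Other members higher on adjusted p alone included FECH (0.73), GSTM3 (0.61), GSTP1 (0.57), PRDX1 (0.53), AKR1B1 (0.49), ABCC1 (0.48) and EPHX1 (0.42). Lower besides NFE2L2 were SLC7A11 (-0.75), ME1 (-0.59), ALDH3A2 (-0.31) and AKR1C2 (-0.29). ALDH1A1, HMOX1, PGD and TKT, which set A549 apart from PC9, overlapped between A549-HOXC6 and A549-NEO and did not pass, though all 4 passed with the correction given next.

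Transcript GC content moved with these differences. Over the 8698 genes with a GC value, the log2 difference in A549 had a Spearman correlation of 0.530 with GC, and 0.361 over the 35 members. These are correlations across genes of the same libraries and not over replicates. After each library was corrected for trends on GC and length, 12 of the 18 members that had passed adjusted p alone passed with the same sign. Another 12 then passed that had not, which made 15 higher and 9 lower. The share of all genes that passed adjusted p alone after this correction is not given here, in this or any other comparison. These counts therefore do not set the members apart. ALDH3A1 then had a log2 difference of 0.93 and lost the call, FECH gained it at 1.05, and KEAP1 and NFE2L2 were at 0.68 and -0.62. SLC7A11 was at 0.089, AKR1C2 at 0.049 and ME1 at -0.13, none past the test. CBR1 (0.079), EPHX1 (0.14) and ABHD4 (0.13) no longer passed either. GCLM, at -0.017 before, was at 0.62 (adjusted p = 0.00102). ALDH1A1, at -0.038 before, was at 0.19 (adjusted p = 7.01e-05). The other gained calls on adjusted p were higher for TXN (0.64), UGDH (0.58) and MGST1 (0.56). They were lower for PIR (-0.42), HMOX1 (-0.41), SQSTM1 (-0.39), BLVRB (-0.37), TKT (-0.33), ABCC3 (-0.23) and PGD (-0.21). Over all genes, 149 higher and 483 lower calls became 143 and 166.

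PC9-HOXC6 against PC9-NEO asked the same of the other line. There 3 members fell past the thresholds and none rose, of 36 tested, where 4.53% of the 8419 genes tested passed (0.962% higher and 3.56% lower). DESeq2 likewise put 3 lower and none higher, and 3 were higher at an unadjusted p under 0.05. The median log2 difference was -0.13 over the members and -0.0046 over all genes. SLC7A11, the cystine importer, was at 85.9, 78.5 and 84 CPM without HOXC6 against 18.8, 16.2 and 21.3 with it, 4.26-fold lower (log2 difference -2.09, SE 0.15, adjusted p = 1.74e-11). The antisense gene SLC7A11-AS1 overlaps 865 bases of its exons. ALDH1A1 was at 34, 42.3 and 35.2 CPM without HOXC6 against 10.1, 8.11 and 11 with it, 3.67-fold lower (log2 difference -1.88, SE 0.22, adjusted p = 1.14e-07). The export pump ABCC2 was at 198, 239 and 223 CPM and 104, 98.8 and 113, 2.07-fold lower (log2 difference -1.05, SE 0.092, adjusted p = 7.02e-10). In all 3 every PC9-HOXC6 library lay below every PC9-NEO library.

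**Figure D4:**
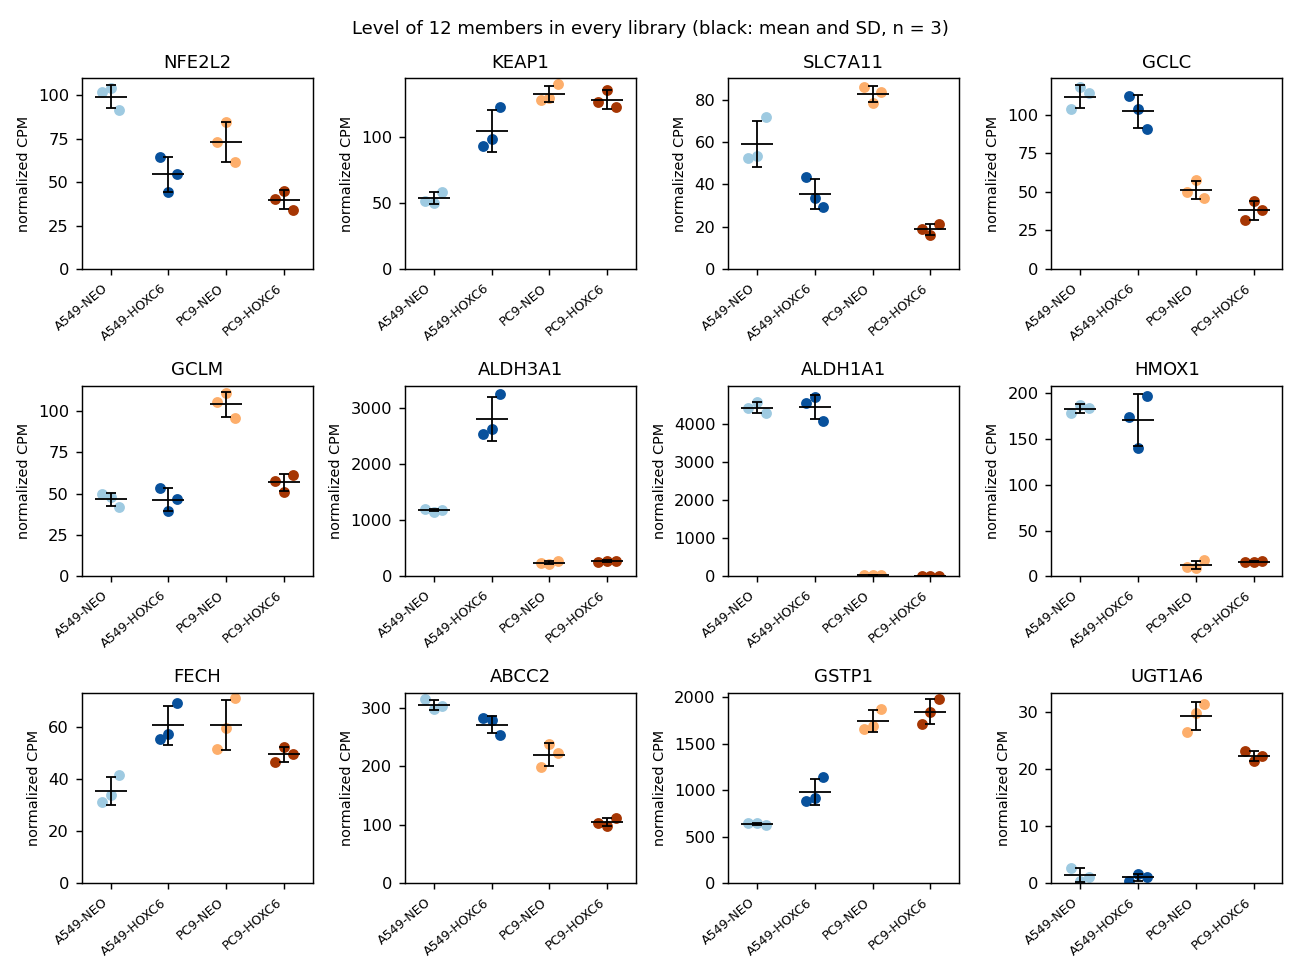
Normalized CPM of 12 members in every library (points), with the mean and SD of each group of 3 in black, on linear axes that start at 0. KEAP1 and ALDH3A1 are higher in A549-HOXC6 than in A549-NEO, SLC7A11 and ABCC2 are lower in PC9-HOXC6 than in PC9-NEO, and NFE2L2 is lower with HOXC6 in both lines.

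On adjusted p alone 13 members were lower in PC9-HOXC6, 3 higher and 20 did not pass, where 14.2% and 13.3% of all genes were lower and higher (27.5% in all). Among the lower ones was the factor itself: NFE2L2 went from 73, 84.6 and 61.9 CPM to 40.5, 45 and 34.2 (log2 difference -0.90, SE 0.15, adjusted p = 2.55e-05), short of the fold threshold that it crossed without PC9-NEO replicate 3 (-1.02). KEAP1 was at 128, 129 and 139.5 CPM and 126, 136 and 122 and did not pass (adjusted p = 0.691). Both ligase subunits were lower, GCLM at -0.84, from 105, 111 and 95.4 CPM to 57.9, 50.9 and 61.3, and GCLC at -0.43. AKR1C2 was at -0.90, ME1 at -0.78, MGST1 at -0.49, UGDH at -0.39, PTGR1 at -0.33, SQSTM1 at -0.28 and PGD at -0.25. The 3 higher ones were BLVRB (0.33), AKR1B1 (0.28) and TKT (0.17).

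GC content moved with the PC9 differences as well, with a Spearman correlation of 0.527 over 8349 genes and 0.711 over the 36 members. With the GC and length correction 11 of the 16 members that had passed adjusted p alone passed with the same sign. GCLC (-0.34, adjusted p = 0.116), UGDH (-0.031), MGST1 (-0.074), BLVRB (0.13) and TKT (-0.017) no longer passed. SLC7A11 (-1.35) and ALDH1A1 (-1.65) kept the call, and ABCC2, at -0.96, lost it. ABCC2 also lost it without PC9-NEO replicate 2 (-0.99). Over all genes, 81 higher and 300 lower calls became 66 and 115. NFE2L2 was at -0.69 (adjusted p = 7.61e-04) and GCLM at -0.33 (adjusted p = 0.0381). TXN, at -0.063 before, was at 0.47 (adjusted p = 6.47e-05), and KEAP1 at -0.26 (adjusted p = 0.0406).

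The HOXC6 comparisons of the lines share no library. On adjusted p alone 4 members were lower with HOXC6 in both, NFE2L2, SLC7A11, ME1 and AKR1C2, and AKR1B1 was higher in both. The share of all genes that passed in both lines is not given here. PTGR1 passed in opposite directions. Passing in A549 alone were 11 higher members, among them KEAP1, ALDH3A1 and the transferases GSTM3 and GSTP1, and 1 lower one, ALDH3A2. Passing in PC9 alone were 8 lower members, among them both ligase subunits, ALDH1A1 and ABCC2, and 2 higher ones, TKT and BLVRB. IDH1, TXN, CBR3, ABCC3, HMOX1, OSGIN1 and PIR passed in neither, and UGT1A6 could be tested in PC9 only. With the GC and length correction TXN was higher in both lines, at 0.64 in A549 and 0.47 in PC9, and HMOX1, ABCC3 and PIR passed lower in A549. In A549 SLC7A11 (0.089), ME1 (-0.13) and AKR1C2 (0.049) then no longer passed. Of the 4 members lower in both, only NFE2L2 stayed so, and AKR1B1 stayed higher in both. PGD (-0.21 in A549 and -0.36 in PC9) and SQSTM1 (-0.39 and -0.45) then also passed lower in both lines. Passing higher in A549 and lower in PC9 were KEAP1 (0.68 and -0.26), GCLM (0.62 and -0.33), ALDH1A1 (0.19 and -1.65) and PTGR1 (0.33 and -0.23). In PC9 GCLC (-0.34), TKT (-0.017) and BLVRB (0.13) no longer passed.

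**Figure D5:**
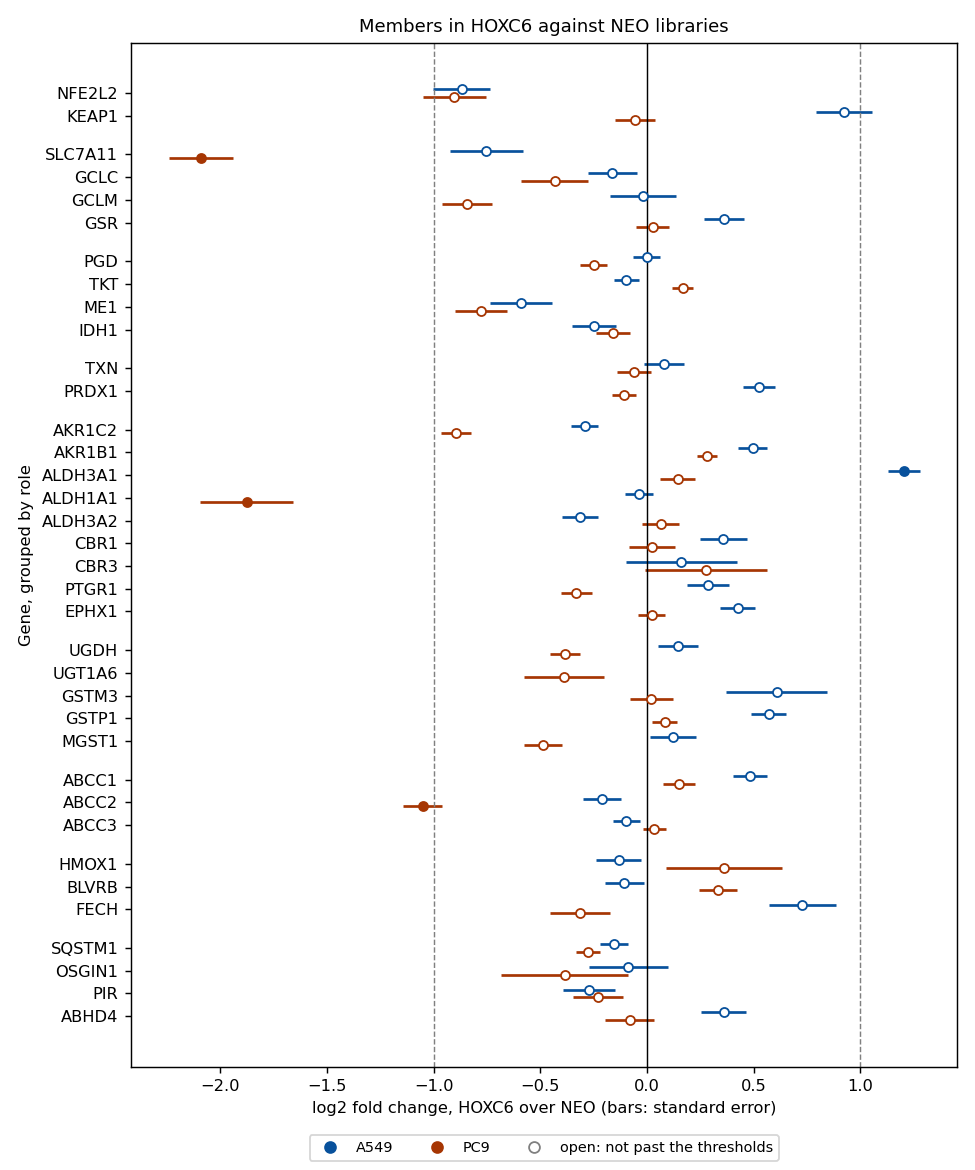
Log2 fold change of HOXC6 over NEO for each member in A549 (blue) and PC9 (brown), with standard errors and dashed lines at the fold threshold. Filled points passed both thresholds: ALDH3A1 in A549, and SLC7A11, ALDH1A1 and ABCC2 in PC9.

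Whether the HOXC6 difference itself differed between the lines was tested as an interaction over all 12 libraries. Past the thresholds, 5 members were higher in A549 relative to PC9 and none lower, of 36, where 5.15% of the 9229 genes tested passed (2.76% higher and 2.38% lower). At an unadjusted p under 0.05, 3 members were lower. With DESeq2 no member was lower past the thresholds and 4 were higher. The 5 higher with edgeR were ALDH1A1 (log2 difference 1.88, SE 0.18, adjusted p = 2.63e-10), SLC7A11 (log2 difference 1.39, SE 0.24, adjusted p = 3.77e-05), ALDH3A1 (log2 difference 1.11, SE 0.12, adjusted p = 4.64e-09), FECH (log2 difference 1.09, SE 0.21, adjusted p = 2.33e-04) and KEAP1 (log2 difference 1.03, SE 0.16, adjusted p = 9.42e-06). The log2 differences of ALDH1A1 were -0.038 in A549 and -1.88 in PC9, and those of SLC7A11 were -0.75 and -2.09. For ALDH3A1 and KEAP1 the level rose in A549 while PC9 gave 0.14 and -0.058, neither past the test. FECH went from 31.2, 34.2 and 41.6 CPM to 55.7, 57.4 and 69.6 in A549 and from 51.9, 59.9 and 71.3 to 46.8, 52.4 and 49.7 in PC9.

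On adjusted p alone the interaction was higher in 20 members and lower in 2 (ALDH3A2 and BLVRB), where 10.9% and 8.44% of all genes were (19.4% in all). These counts were 15 and 3 with DESeq2, 16 and 3 with RLE factors, and 15 and 1 without A549-NEO replicate 3. The matching shares of all genes in these settings, and with the correction named below, are not given here. The median over the members was 0.38 and that over all genes 0.05, and with DESeq2 they were 0.33 and 0.00059. The 20 included PRDX1 (0.68), GCLM (0.88), ABCC2 (0.89), MGST1 (0.66), PTGR1 (0.66), AKR1C2 (0.65), UGDH (0.58) and GSTP1 (0.54). NFE2L2 did not pass (0.083, adjusted p = 0.831), with -0.87 in A549 and -0.90 in PC9, and the 95% interval of the difference ran from -0.32 to 0.48. GC content had a Spearman correlation of 0.086 with the interaction over 9150 genes and -0.276 over the members. With the GC and length correction 16 members were higher and 3 lower, and ALDH1A1, SLC7A11 and FECH remained past the thresholds while KEAP1 (0.93) and ALDH3A1 (0.97) did not. Without A549-HOXC6 replicate 3 only ALDH1A1 and SLC7A11 remained, with KEAP1 at 0.89, ALDH3A1 at 0.98 and FECH at 0.97. FECH also lost the call without A549-NEO replicate 1 (0.99) or PC9-NEO replicate 3 (0.95). KEAP1 lost it without A549-NEO replicate 1 or 2, PC9-NEO replicate 3 or PC9-HOXC6 replicate 3, with values from 0.982 to 0.995, and with DESeq2 (0.98).

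Other genes of the pathway, from lists of regulators, further targets and further antioxidant enzymes, were compared in the same fits. Of 14 regulators, 9 were in the table. In A549-NEO against PC9-NEO only NFE2L1, a relative of NRF2, passed the thresholds (1.03), and it lost the call when scaled by library total alone (0.91), with the GC and length correction (0.90), in 1 model over 12 libraries (0.99) and without PC9-NEO replicate 2 (0.96). With HOXC6, 4 of the 9 regulators were lower in A549, where 15.9% of all genes tested were. They were the ligase genes CUL3 (-1.35) and RBX1 (-1.53), which with KEAP1 form the NRF2 ligase, the kinase GSK3B (-1.48), and BACH1 (-1.21), a repressor that competes for antioxidant response elements. RBX1 rested on 4 to 8 counts in each A549-HOXC6 library.

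BACH1 also passed in A549-HOXC6 against A549-NEO, at 28.1, 26.1 and 35 CPM without HOXC6 against 20.0, 3.42 and 10.2 with it (log2 difference -1.24, SE 0.28, adjusted p = 9.63e-04). Without A549-HOXC6 replicate 2, where it had 4 counts, the difference was -0.96 and the call was lost, and it was also lost with DESeq2 (adjusted p = 0.0619) and with the GC and length correction (-0.64). Against PC9-HOXC6 the value without that library was -0.91, likewise no longer past the threshold. In PC9-HOXC6 against PC9-NEO no regulator passed the thresholds with edgeR, and 1 was higher and 1 lower on adjusted p alone (2 and 2 at an unadjusted p under 0.05).

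Of 24 further targets 8 were in the table. TRIM16L was higher in A549, at 1.31 in the NEO and 1.79 in the HOXC6 libraries, and NAMPT, which makes NAD precursors, was lower, at -1.12 and -1.23. Among the HOXC6 libraries the ferritin light chain FTL (1.16), the pump ABCC4 (1.29) and SLC3A2 (1.02), the partner of SLC7A11 in the cystine carrier, were also higher. SLC3A2 was at 0.95 when scaled by library total alone, which ended its call, at 0.96 with the GC and length correction, at 0.88 without A549-HOXC6 replicate 3 and at 0.95 without PC9-HOXC6 replicate 2. No further target passed the thresholds in either HOXC6 against NEO comparison with edgeR, though on adjusted p alone 6 of 8 were lower and 1 higher in PC9, where 14.2% and 13.3% of all genes were. In A549 2 were lower and 2 higher, where 20.7% and 18.9% of all genes were. These counts were the same at an unadjusted p under 0.05. SLC3A2 also passed the interaction (1.11), a call lost without A549-HOXC6 replicate 3 (0.99) and with the GC and length correction (0.96).

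Of 24 further antioxidant enzymes 16 were in the table. Peroxiredoxin PRDX2 was at the counting floor in A549, with at most 2 counts in any A549 library, and PC9-NEO held 263, 243 and 276 CPM against 257, 264 and 259.6 with HOXC6. It was at least 228-fold lower in A549-NEO than in PC9-NEO and at least 148-fold lower in the HOXC6 libraries, taking 3 counts per library as the floor. The extracellular superoxide dismutase SOD3 also had at most 2 counts in an A549 library and was at 24.3, 19.6 and 20.4 CPM in PC9-NEO, and it was at least 18.8-fold lower in A549-NEO and 11.9-fold lower in A549-HOXC6 than in the matching PC9 group. The other 14 held no gene past the thresholds in the NEO libraries, and the transferase MGST2 was higher in A549 in the HOXC6 libraries (1.25). MGST2 also passed the interaction at the threshold itself (1.0), a call lost with DESeq2 (0.95) and when any one of 6 libraries was left out, among them A549-HOXC6 replicate 3 (0.93) and PC9-HOXC6 replicate 3 (0.89). None of the 16 passed the thresholds in either HOXC6 against NEO comparison with edgeR, where 4 of 14 tested in A549 and 2 of 16 in PC9 were higher on adjusted p alone, against 18.9% and 13.3% of all genes. At an unadjusted p under 0.05 there were 6 higher and 1 lower in A549, and 2 and 1 in PC9.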

How the data were processed

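Poly(A) RNA of 12 libraries, 3 in each of 4 groups, was sequenced as read pairs from a directional kit. Per the submitters' processing notes and the labels, the authors used bcl2fastq (2.19), HISAT2 (2.1.0) and HTSeq (0.9.1) on GRCh37.p13, with DESeq2, and deposited raw counts per gene. The strand setting and annotation release are not given in the sources used here. The table used here ends in 1 incomplete row, which was left out, and genes past it are not analysed here. Of the 12584 genes it holds, 12463 matched the GENCODE annotation used here for names, coordinates, length and GC, and 121 did not.

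Genes were filtered with filterByExpr, scaled by TMM and tested with edgeR (4.0.16) quasi-likelihood fits in R (4.3.3), with Benjamini-Hochberg adjustment over all genes tested. The study's thresholds were used, a log2 fold change beyond 1 in size with adjusted p under 0.05. A standard error is the log2 difference over the root of the test's F. CPM values use 1 TMM scale over 12 libraries. Library totals ran from 1212053 to 3286577 counts. The steps were tested on simulated counts. Alternatives were DESeq2 (1.42.0), RLE factors, library totals, other filters, 1 model over all libraries, a GC and length correction (mgcv 1.9.3), the replicate block and leaving out each library.

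All 36 members were reported, in full where past the thresholds in any test, together with NFE2L2 and KEAP1, and other pathway genes were named where past the thresholds. Members and lists were chosen with earlier results of these data known. Promoters were read from a RefSeq table. The values of 1 further target are not reported here.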

Additional observations from a re-analysis of the deposited data

Results flagged for a closer look

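The HOXC6 difference of 5 members differed between A549 and PC9 in the test of that difference itself (edgeR, interaction over 12 libraries). ALDH1A1 differed by 1.88 on the log2 scale, with -0.038 in A549 and -1.88 in PC9. SLC7A11 differed by 1.39, with -0.75 in A549 and -2.09 in PC9. ALDH3A1 differed by 1.11, with 1.20 and 0.14. FECH differed by 1.09, with 0.73 and -0.31. KEAP1 differed by 1.03, with 0.92 and -0.058. Adjusted p ran from 2.63e-10 for ALDH1A1 to 2.33e-04 for FECH. With A549-HOXC6 replicate 3 left out, ALDH1A1 and SLC7A11 stayed past the thresholds and the other 3 did not. With the GC and length correction KEAP1 (0.93) and ALDH3A1 (0.97) lost the call, and the A549 value of SLC7A11 was 0.089. KEAP1 also lost the call with DESeq2, and KEAP1 and FECH lost it without some other single libraries.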

How the results depend on the processing

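With no fold criterion the counts of members higher and lower were 18 and 15 in A549-NEO against PC9-NEO, 19 and 11 in A549-HOXC6 against PC9-HOXC6, 13 and 5 in A549-HOXC6 against A549-NEO, 3 and 13 in PC9-HOXC6 against PC9-NEO, and 20 and 2 in the interaction. The GC and length correction left 3 members higher in the interaction, with or without the replicate block. It turned the sign of 6 members in A549-HOXC6 against A549-NEO, where IDH1 was at 0.0029, CBR3 at -0.11, GCLM at 0.62 (0.60 with the block), AKR1C2 at 0.049 (0.049), ALDH1A1 at 0.19 (0.19) and SLC7A11 at 0.089 (0.084). In PC9 it turned 9, among them TXN at 0.47, TKT at -0.017 (-0.018 with the block) and GSTP1 at -0.11 with and without the block, and the other 6 (GSR, IDH1, ALDH3A1, CBR1, EPHX1 and ABCC3) passed no test before or after. Leaving out each library in turn gave 1 to 2 members higher and 0 to 1 lower in A549-HOXC6 against A549-NEO, and 2 to 5 higher in the interaction. The replicate block changed none of the 10 counts past the thresholds by more than 1.5 times and none of the 124 calls on single members, and same-numbered libraries, with correlations of -0.046 to 0.038, did not correlate best with each other in every pair, so the block pairs only numbers. DESeq2, RLE factors, library totals, the filters and the 12-library model likewise kept every member count past the thresholds within 1.5 times. The 5 members lower on adjusted p alone in A549-HOXC6 against A549-NEO became 10 under library totals, 9 under the minimum of 10 counts and under the GC and length correction, and 8 without A549-HOXC6 replicate 3. The shares of all genes on adjusted p alone in these settings are not given here. There were 1, 1 and 2 single calls lost under DESeq2, RLE factors and library totals. Library totals moved the median of all genes in A549-NEO against PC9-NEO from 0.015 to -0.097. Over all genes the GC and length correction took lower calls from 483 to 166 in A549 and from 300 to 115 in PC9 for HOXC6 against NEO, and a minimum of 10 counts in every library, which tests fewer genes, took calls from 1779 and 1491 to 1112 and 966 in the NEO line comparison, from 1585 and 1408 to 935 and 813 in the HOXC6 one, from 149 to 95 higher in A549, from 81 and 300 to 52 and 181 in PC9 and from 220 to 134 lower in the interaction. That minimum left UGT1A6 untested wherever A549 libraries entered and OSGIN1 wherever PC9-HOXC6 libraries did, so both lost their calls in A549-HOXC6 against PC9-HOXC6. For the other changes the cause was not tested. Depth limits UGT1A6, PRDX2 and SOD3 in A549, RBX1 and BACH1.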
